A study of Mus musculus with 10 samples.

Results

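Late cortical development was examined by setting neocortex at the day of birth (P0) against neocortex at the embryonic stage E15.5 in CD1 wild type mice, an outbred laboratory strain. The comparison used 4 of the 10 RNA-seq libraries of the series, 2 per stage, and all genes whose deposited values averaged at least 1 TPM (read counts divided by gene length and scaled to a fixed total per library) over those 4 libraries. Of the 6147 genes listed, 6010 met this minimum and 137 did not. All groups shared the strain, the genotype and the tissue, and differed by stage alone as far as the labels state. The series also holds 2 libraries each from E12.5, E14 and E17, which served here to place the later changes in time and entered no test of P0 against E15.5. The labels name the 2 libraries of a stage biological duplicates and give no sex, litter or number of animals per library.

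In this interval the neocortex moves from producing neurons to producing glia. Radial glia, the stem cells that line the ventricle, and the intermediate progenitors they give rise to stop yielding neurons. Upper layer neurons migrate, and radial glia begin to turn into astrocytes. The neurons already in place extend axons, form their first synapses and acquire the channels and pumps of excitable cells.

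The deposited values hold 69.7% to 70.9% of each of the 4 libraries' TPM, and the values of low genes corresponded to 22192702 to 25744913 reads per library over the listed genes. The SD of the difference between the 2 libraries of a stage was 0.0878 on the log2(TPM + 1) scale at E15.5 and 0.176 at P0, so the P0 pair was the noisier of the 2. At E17 it was 0.285. A marker of cortical tissue was present in each library. *Emx1*, the factor of the dorsal telencephalon, stood at 84.2 and 76.5 TPM at E15.5 and at 54.2 and 51.0 at P0.

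Between the stages 3657 of the 6010 genes (60.8%) differed at an adjusted p under 0.05 in limma's moderated test on log2(TPM + 1). Of these, 1431 (23.8%) were higher at P0 and 2226 (37%) were lower. All changes below are P0 minus E15.5 on this scale, on which low genes appear to change less than their TPM do. The median over all genes tested was −0.09. Scaling by the median of ratios moved that median to −0.01 and evened the split to 1797 higher and 1797 lower, and quantile normalization gave 1746 and 1828, so the balance of calls depends on the scaling. Without E15.5 replicate 1 the count was 2421, with 1464 lower, and without E15.5 replicate 2 the higher calls numbered 951. A change of at least 1, which is a doubling or more of TPM + 1, was seen in 180 called genes that rose (3%) and 273 that fell (4.54%). The values of the 2 libraries of 1 stage lay apart from those of the other in 82% of genes. An exact permutation test of 2 libraries against 2 cannot give a two-sided p under 0.33, so single genes were judged by the fit across all genes alone.

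**Figure D1:**
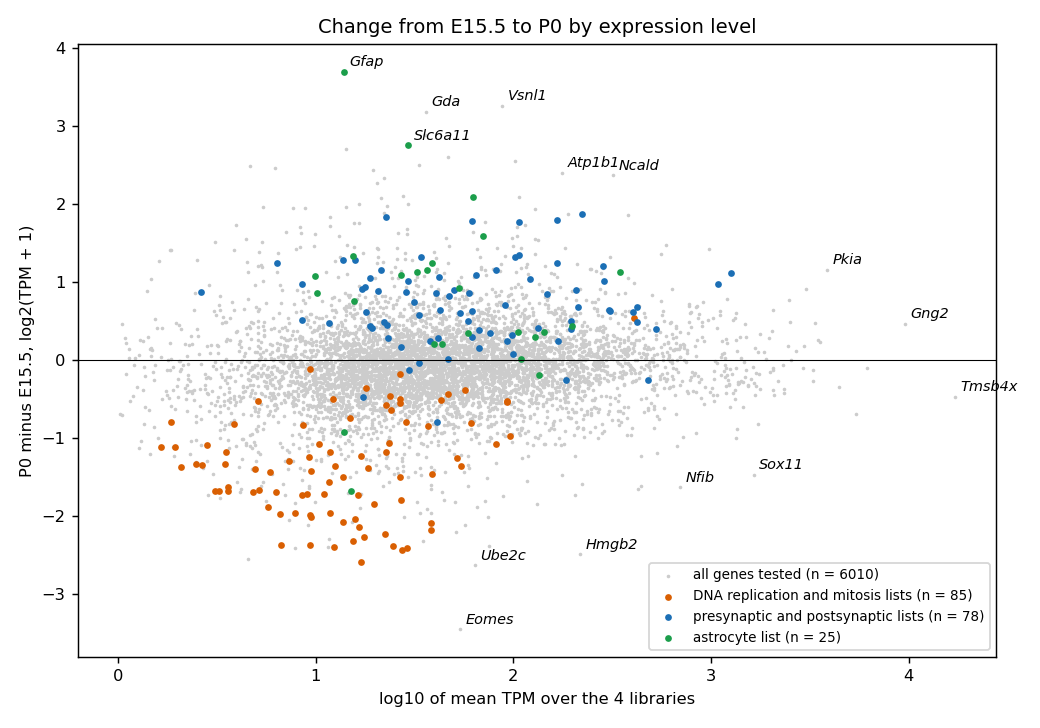
Each point is 1 of the 6010 genes, placed by the log10 of its mean TPM over the 4 libraries and by its change from E15.5 to P0 on the log2(TPM + 1) scale. Members of the DNA replication and mitosis lists (orange, 85 genes) lie below the line except Zwint, and most members of the synaptic lists (blue, 78 genes) and the astrocyte list (green, 25 genes) lie above it.

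The genes that fell by 1 or more held 2.13% and 2.06% of TPM in the 2 E15.5 libraries and 0.78% and 0.80% at P0. Those that rose by 1 or more went from 1.05% and 1.09% to 2.69% and 2.78%. Genes with smaller changes, which were more numerous, moved more of the TPM. Genes that fell by less than 1 held 26.3% of TPM in each E15.5 library and 19.3% and 19.5% at P0, while genes that rose by less than 1 went from 15.7% and 15.8% to 21.5% and 21.6%. These shares describe the genes by the change that sorted them and carry no test. The TPM appear to be scaled by coding length, as given at the end, so they are not shares of RNA.

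Of all called genes that averaged 10 TPM or more, the largest fall was that of *Eomes* (ENSMUSG00000032446; GRCm38 chr9:118478212-118486132, plus strand), the transcription factor that marks intermediate progenitors. It stood at 99.7 and 99.6 TPM in the E15.5 libraries and at 8.28 and 8.20 TPM at P0, a 12.1-fold difference. On the log2 scale it fell by 3.45 (SE 0.07, adjusted p = 4.09e-08). The largest rise was that of *Gfap* (ENSMUSG00000020932; chr11:102887336-102900912, minus strand), the intermediate filament protein of astrocytes. It stood at 1.03 and 1.25 TPM at E15.5 and at 27.7 and 25.5 TPM at P0, which is 3.69 higher on the log2 scale (SE 0.10, adjusted p = 8.93e-08). Neither gene's values overlapped between stages, which the choice of these genes required and which held for 82% of all genes tested.

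After *Eomes*, the 14 largest falls were almost all of genes that dividing cells use. *Ube2c*, which hands ubiquitin to the anaphase-promoting complex, was at 120 and 102 TPM at E15.5 and at 17.3 and 16.7 at P0. *Hmgb2*, a DNA-bending chromatin protein, was at 386 and 357 TPM and then at 60.4 and 70.4. *Tk1*, thymidine kinase, fell by 2.59 and *Top2a*, the topoisomerase of dividing cells, by 2.26. *Ccnb1* (the mitotic cyclin B), *Cks2* (a subunit of its kinase), *Cdca5* (sororin, which holds sister chromatids together), *Spc25* (kinetochore), *Nusap1* and *Prc1* (spindle), *Aurkb* and *Pbk* (mitotic kinases) and *Uhrf1* (which recruits the maintenance DNA methyltransferase) fell by between 2.23 and 2.44. *Tuba1c*, an alpha tubulin, fell by 2.29. It is closely related to other alpha tubulins, and how reads were shared between them is not stated.

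The 15 largest rises included genes of calcium signalling, ion transport, inhibitory receptors and astrocytes. *Vsnl1*, a neuronal calcium sensor, stood at 15.1 and 16.6 TPM at E15.5 and at 154 and 166 TPM at P0, a rise of 3.26 (SE 0.08). *Gda*, guanine deaminase, which shapes dendrites, rose from 6.09 and 6.66 to 59.6 and 72.5 TPM. *Gabra5*, a GABA-A receptor subunit, rose from 7.53 and 8.16 to 65.2 and 62.7 TPM. *Slc6a11*, a GABA transporter of astrocytes, rose from 6.82 and 6.91 to 54.6 and 49.3 TPM. *Atp1b1*, a beta subunit of the sodium pump, rose by 2.40 and *Ncald*, the calcium sensor neurocalcin delta, by 2.37. The others were signalling and trafficking genes: *Ptk2b* (a calcium-activated tyrosine kinase, 2.70), *Osbpl1a* (an oxysterol-binding protein, 2.60), *Adap1* (an Arf GTPase-activating protein, 2.55), *Prkcb* (protein kinase C beta, 2.49), *Rasgrp2* (an exchange factor for Rap and Ras, 2.43), *Serpine2* (a protease inhibitor, 2.33), *Rit2* (a neuronal small GTPase, 2.27) and *Tbc1d5* (a Rab GTPase-activating protein, 2.10).

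In TPM, the gains and losses were led by abundant genes. Their changes on the log2 scale ran from 0.46 (*Gng2*) to 1.42 (*Gap43*) among the 8 largest gains. Among the 8 largest losses they ran from −0.34 (*Tpt1*) to −1.63 (*Nfib*). *Pkia*, an inhibitor of protein kinase A, rose from 2388 and 2424 TPM to 5171 and 5556. *Gap43*, a growth cone protein, rose from 518 and 551 TPM to 1373 and 1488, and *Stmn2*, a tubulin-binding growth cone protein, from 2080 and 2117 to 3953 and 3944. *Cplx2* (complexin, which holds vesicles ready for fusion), *Mllt11*, *Mtpn* and *Gng2* (a G protein gamma subunit) were also among the 8 largest gains. *Tmsb4x*, an actin-sequestering peptide and the gene with the highest mean, fell from 20314 and 19370 TPM to 15025 and 13673. *Sox11*, a transcription factor of newborn neurons, fell from 2448 and 2395 TPM to 822 and 928. *Nfib*, a nuclear factor with roles in both deep layer neurons and glia, fell from 1064 and 1054 TPM to 324 and 361. *Ptma*, *Tpt1*, *Hnrnpa1*, *Hmgn1* and *Hnrnpa2b1* were the other large losses. Quantile normalization, which gives genes of equal rank equal values in each library, takes away the calls of *Gng2* and *Tmsb4x*.

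Genes of DNA replication fell. All 40 tested members of the list (of 41 listed) were lower at P0, with a median of −1.06 and a range from −2.59 to −0.36, and 21 fell by 1 or more. The helicase that opens replication origins fell subunit by subunit: *Mcm3* by 2.08, *Mcm2* by 1.96, *Mcm5* by 1.74, *Mcm4* by 1.56, *Mcm6* by 1.17 and *Mcm7* by 0.80. The nucleotide suppliers *Tyms* and *Rrm2* fell by 1.84 and 1.35. *Pcna*, the sliding clamp, went from 126 and 130 TPM to 64.8 and 64.7. The smallest falls were those of the primase subunits *Prim1* and *Prim2* (−0.47 and −0.36) and of *Rfc2* (−0.38), a clamp loader subunit whose call is lost under median-of-ratios scaling (adjusted p = 0.0623). *Prim2* misses the threshold without E15.5 replicate 2 (adjusted p = 0.129). The list's summed level was 1410 and 1390 TPM at E15.5 and 705 and 718 TPM at P0. In bulk tissue, fewer dividing cells and less of these RNAs in each cell cannot be told apart.

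Genes of mitosis fell further. Of 45 tested, 42 were lower, 1 was higher and 2 were not called, and 40 fell by 1 or more, with a median of −1.68. *Cdk1*, the kinase that drives entry into mitosis, went from 64.6 and 62.7 TPM to 14.1 and 12.46. *Ect2*, which positions the cleavage furrow, went from 17 and 15.8 to 2.21 and 2.48. *Bub1b*, a spindle checkpoint kinase, fell by 2.37 and *Kif11*, the motor that separates spindle poles, by 2.01. *Zwint*, a kinetochore linker, was the exception, at 335 TPM in each E15.5 library and at 474 and 497 at P0, a rise of 0.53 (SE 0.07). *Ckap5* (−0.18) and *Zw10* (−0.12) did not pass the test. The median fall of the mitosis list exceeded that of the replication list in these libraries, a difference that was not tested.

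Promoters of these lists were searched for letters that cell cycle regulators are known to bind. E2F factors act on replication genes through sites read here as TTTCCCGC or TTTGGCGC. The CHR element, read here as TTTGAA, is the docking site of the complexes that act on mitotic genes. Printed here are the 250 bases before the RefSeq start (GRCm38.p6), 5′ to 3′ on the gene's strand, for the 2 replication genes with an E2F match there and the 2 mitosis genes with a CHR match there that fell most, among those whose printed bases lie outside the gene in GENCODE M21 as well. Capitals mark the E2F or CHR letters on either strand.
Mcm5, chr8:75109259-75109508, plus strand: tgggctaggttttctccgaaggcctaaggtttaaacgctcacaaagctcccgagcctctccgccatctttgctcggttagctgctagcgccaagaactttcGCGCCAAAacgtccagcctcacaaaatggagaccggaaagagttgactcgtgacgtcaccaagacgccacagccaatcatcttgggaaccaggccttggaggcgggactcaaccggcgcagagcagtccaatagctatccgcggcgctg
Mcm6, chr1:128359706-128359955, minus strand: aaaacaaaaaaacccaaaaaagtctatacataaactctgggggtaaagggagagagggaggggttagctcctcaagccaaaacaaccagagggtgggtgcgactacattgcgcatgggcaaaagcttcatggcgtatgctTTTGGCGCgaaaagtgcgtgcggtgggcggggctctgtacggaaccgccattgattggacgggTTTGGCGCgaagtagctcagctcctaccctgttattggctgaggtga
Ect2, chr3:27153879-27154128, minus strand: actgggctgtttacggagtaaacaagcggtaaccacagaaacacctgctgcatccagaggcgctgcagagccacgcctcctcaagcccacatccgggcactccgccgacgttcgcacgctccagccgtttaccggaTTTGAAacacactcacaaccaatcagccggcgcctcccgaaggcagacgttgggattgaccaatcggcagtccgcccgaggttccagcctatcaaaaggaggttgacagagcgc
Kif11, chr19:37376132-37376381, plus strand: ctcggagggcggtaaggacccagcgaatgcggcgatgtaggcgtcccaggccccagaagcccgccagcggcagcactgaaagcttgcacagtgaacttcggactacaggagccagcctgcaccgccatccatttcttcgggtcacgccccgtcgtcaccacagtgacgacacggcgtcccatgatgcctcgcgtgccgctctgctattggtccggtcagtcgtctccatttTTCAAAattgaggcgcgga
In *Mcm5* the match began 149 bases before the start, and *Mcm6* had matches at 110 and 47 bases before it. *Ect2* had its match at 114 bases and *Kif11* at 19 bases before the start. *Mcm5* stood at 25.9 and 25.6 TPM at E15.5 and at 7.08 and 7.0 at P0, and *Mcm6* at 31.9 and 31.8 and then at 12.8 and 14.3. *Kif11* stood at 16.1 and 15.3 TPM and then at 2.95 and 3.35.

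Shares of promoters with each motif were then counted in windows from 250 bases before to 50 bases after the start, on both strands, with each motif counted apart from any other it overlapped. The RefSeq table gave a promoter for 4746 of the 6010 genes, and the first entry of a symbol was used. E2F letters stood in 1.63% of all 27025 promoters in the table and in 3.46% of those of tested genes. Among genes that fell by 1 or more the share was 9.05%, and among genes that rose by 1 or more it was 0.76% (1 of 131). The CHR letters stood in 18.1% of all promoters, 11.3% of those tested, 28.1% of those that fell by 1 or more and 11.5% of those that rose by 1 or more. The CCAAT box, read as CCAAT, stood in 37.9% of all promoters, and its share fell in steps from 49.3% in genes that fell by 1 or more to 26.7%.

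Both the replication list and the mitosis list held all 3 motifs, at shares whose difference was not tested. In the replication list 9 of 33 promoters (27.3%) had E2F letters and 18.2% had the CHR. In the mitosis list 29 of 39 (74.4%) had the CHR and 10.3% had E2F letters. The CCAAT box stood in 66.7% of each. Among the 168 genes outside both lists that fell by 1 or more, the shares were 5.95% (E2F), 18.5% (CHR) and 44.6% (CCAAT). Those of the tested genes were lower (3.46%, 11.3% and 38.3%). Those of all genes that fell by 1 or more were higher (9.05%, 28.1% and 49.3%). Of the 32 matched presynaptic genes, none had E2F letters and 6 (18.75%) had the CHR. A match describes the letters of a window and says nothing of binding.

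**Figure D2:**
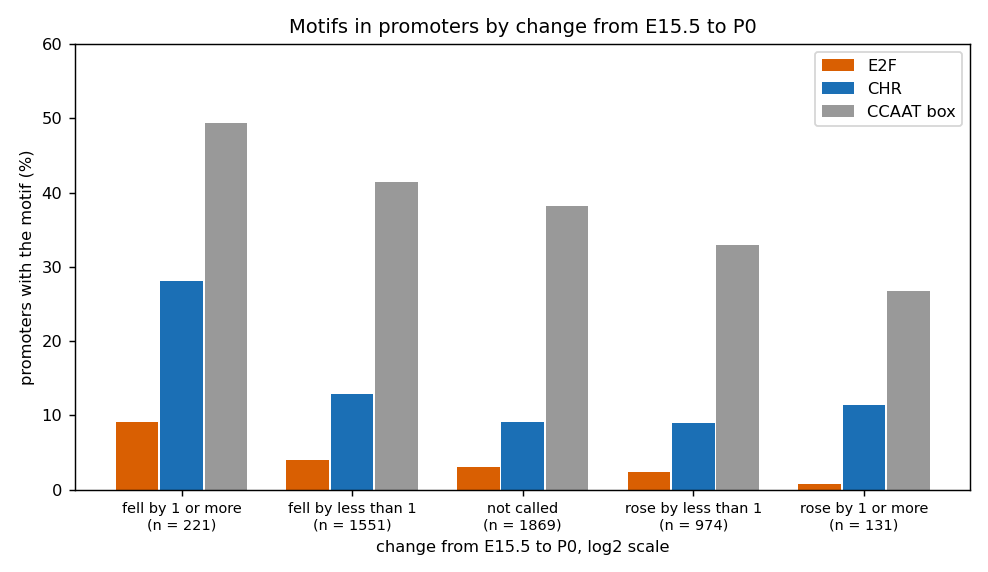
Bars give the percent of promoters that hold the E2F, CHR or CCAAT letters, for genes grouped by their change from E15.5 to P0 on the log2 scale, with the number of promoters under each group. The E2F share falls from 9.05% to 0.76% and the CCAAT share from 49.3% to 26.7% from left to right, while the CHR share is 28.1% in the group that fell most and between 9.03% and 12.8% in the others.

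Most genes of radial glia fell, and some of the exceptions are also genes of astrocytes. Of 19 tested radial glia genes (of 28 listed), 14 were lower, 1 was higher and 4 were not called, with a median of −0.79. *Pax6*, the regulator of cortical progenitors, went from 53.3 and 49.9 TPM to 13.1 and 14.7. The filament genes of radial glia fell too: *Vim* from 321 and 309 TPM to 95.9 and 92.7, and *Nes* from 59.2 and 57.5 to 16.5 and 19.5. *Gli3*, the transcriptional mediator of hedgehog signals, fell by 2.01, and *Notch1* and *Notch2*, receptors that keep progenitors undifferentiated, fell by 1.30 and 1.09. *Sox2*, also a gene of glia, fell by 0.54, from 85.0 and 86.0 TPM to 56.6 and 60.1. *Slc1a3*, the glutamate transporter of radial glia and astrocytes, rose by 0.35, from 53.4 and 49.7 to 67.7 and 64.2 TPM, a call that is lost without E15.5 replicate 2 (adjusted p = 0.0933). *Fabp7*, the brain lipid-binding protein, was at 1245 and 1349 TPM at E15.5 and at 1392 and 1420 at P0, a change of 0.12 that did not pass the test.

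All 4 tested intermediate progenitor genes (of 12 listed) were lower, with a median of −1.91. Beside *Eomes* stood *Insm1*, a zinc finger factor that promotes basal progenitors, which went from 121 and 120 TPM to 30.2 and 28.2, and *Rcor2*, a corepressor, which fell by 1.81. *Elavl4*, which neurons also express, fell by 0.47. The sum over the list went from 501 and 491 TPM to 180 and 195.

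Genes of the fetal growth program that decline as progenitors age fell in all 10 cases tested (of 21 listed), with a median of −1.52. *Hmga2*, a chromatin protein of young stem cells, went from 9.50 and 7.37 TPM to 0.64 and 0.58. The RNA-binding proteins *Igf2bp1*, *Igf2bp2* and *Igf2bp3* fell by 1.90, 1.44 and 1.43, and the D-type cyclins *Ccnd2* and *Ccnd1* by 1.66 and 0.94. *Igf2*, the fetal growth factor, fell by 0.88, from 76.1 and 82.3 TPM to 47.6 and 38.0. It is also high in meninges, whose marker genes are given further on.

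Neuron identity genes did not move as a block. Of 9 tested deep layer genes (of 13 listed), 6 were lower, 1 was higher and 2 were not called, with a median of −0.93. *Bcl11b*, the factor of subcerebral neurons, went from 143 and 142 TPM to 66.2 and 79.9, *Tbr1*, that of corticothalamic neurons, from 138 and 143 to 69.3 and 77.6, and *Sox5* from 180 and 169 to 52.4 and 66.1. *Ldb2*, a LIM domain cofactor, rose by 0.97. Among 6 tested upper layer genes (of 14 listed), 2 were higher, 2 lower and 2 not called. *Mef2c*, an activity-regulated factor, rose from 298 and 325 TPM to 763 and 981, and *Plxnd1*, a semaphorin receptor, by 0.59. *Pou3f2*, a POU factor of upper layer precursors, fell by 0.88, and *Cux1* by 0.22, a call lost under both scalings, with all 10 libraries in the fit and without either E15.5 library (adjusted p from 0.0849 to 0.326).

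Migration and early differentiation genes moved in both directions. Of 36 tested, 14 were higher, 12 lower and 10 not called, with a median of 0.11. Over all genes tested 23.8% were higher and 37% lower, and the share of the list called lower was near the latter. Those that fell included *Sox11* (−1.47), *Sox4* (−0.94), *Rnd2* (−1.59), a small GTPase of migrating neurons, and *Nde1* (−1.97), a dynein partner of dividing progenitors. The axon guidance receptors *Nrp1* and *Plxna2* fell by 1.26 and 1.01. Those that rose were growth cone and microtubule genes such as *Gap43* (1.42), *Stmn2* (0.91) and *Crmp1* (0.71). *Dcx*, doublecortin, was at 2384 and 2354 TPM at E15.5 and at 1689 and 2301 at P0, and did not pass the test at −0.26. The list's sum went from 28247 and 28984 TPM to 30791 and 31676.

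**Figure D3:**
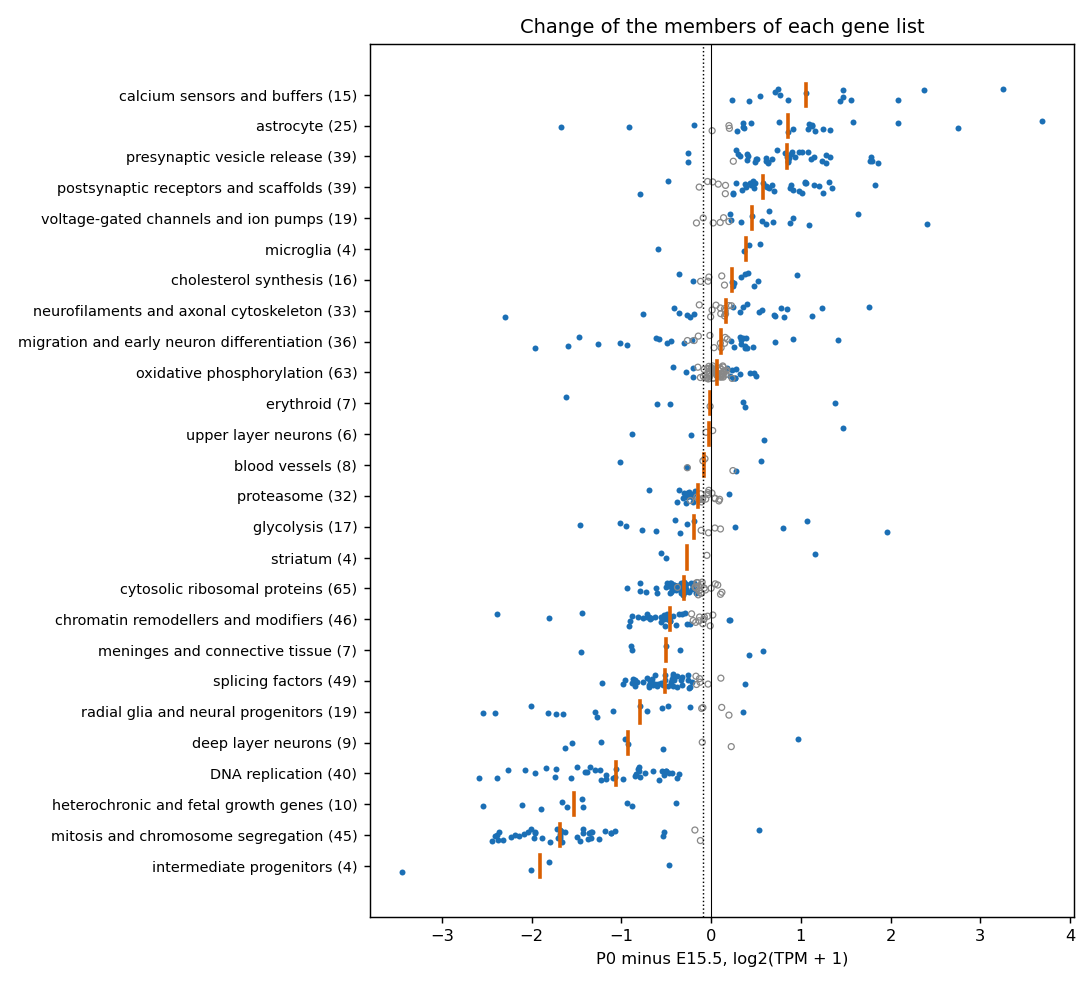
Each point is the change of 1 gene from E15.5 to P0 on the log2(TPM + 1) scale, in rows by gene list with the number tested. Filled points passed the test, open points did not, orange bars are medians and the dotted line is the median of all genes. Calcium sensors, synaptic and astrocyte genes lie to the right and progenitor, replication and mitosis genes to the left.

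Genes of vesicle release rose. Of 39 tested presynaptic genes (of 46 listed), 36 were higher, 2 were lower and 1 was not called, with a median of 0.84, and 12 rose by 1 or more. *Sncb*, a synuclein, went from 72.0 and 75.2 TPM to 265 and 250. Of the fusion machinery, *Stx1a* (syntaxin) rose by 1.77, *Vamp2* (synaptobrevin) by 0.98 and *Snap25* by 0.62, the latter from 310 and 328 TPM to 483 and 496. *Syt1*, the calcium sensor of fast release, rose by 1.24, and *Dnm1*, the dynamin of vesicle recycling, by 1.32. *Syp*, synaptophysin, rose by 0.40. Against the list, *Rab3c* went from 525 TPM in each E15.5 library to 411 and 469, and *Syt11*, a synaptotagmin that does not bind calcium, from 205 and 198 to 174 and 163. Under median-of-ratios scaling neither of the 2 was called lower.

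Postsynaptic genes rose less uniformly. Of 39 tested (of 53 listed), 31 were higher, 2 were lower and 6 were not called, with a median of 0.58. The kinase subunits *Camk2a* and *Camk2b* rose by 1.83 and 1.20, the former from 9.26 and 9.64 TPM to 35.7 and 36.5. The metabotropic glutamate receptors *Grm3* and *Grm5* rose by 1.24 and 1.15, and the scaffold *Dlg2* by 1.32. *Dlg4*, the scaffold PSD-95, rose by 0.49, from 164 and 161 TPM to 235 and 222. The glutamate receptor subunits changed little: *Gria2* rose by 0.38, whereas *Gria1* (46.2 and 46.5, then 48.9 and 45.1 TPM) and *Grin2b* (62.7 and 63.1, then 63.3 and 78.0 TPM) did not pass the test. *Gabra3*, a GABA-A receptor subunit, rose by 1.01. *Homer3* and *Dlg1* fell by 0.79 and 0.48.

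All 15 tested calcium sensors and buffers (of 22 listed) rose, with a median of 1.06. The neuronal calcium sensor family gave *Vsnl1* (3.26), *Ncald* (2.37), *Hpcal4* (1.56), *Hpca* (1.06), *Hpcal1* (0.71) and *Ncs1* (0.23). *Necab1*, an EF-hand protein, went from 39.1 and 40.5 TPM to 154.5 and 192. *Camk4*, the nuclear calmodulin kinase, rose by 1.47 and *Calb1*, the buffer calbindin, by 0.85.

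Channels and pumps rose in 13 of 19 tested cases (of 41 listed) and none fell, with a median of 0.46. The sodium pump's beta subunits *Atp1b1* and *Atp1b2* rose by 2.40 and 0.92. *Slc12a5*, the chloride extruder that makes GABA inhibitory, rose by 1.64, from 2.97 and 2.82 TPM to 12.6 and 9.77. *Slc12a2*, the chloride importer of immature neurons, was at 14.3 TPM in each E15.5 library and at 16 and 15.7 at P0, and did not pass the test at 0.14. The fetal sodium channel *Scn3a* (0.20) and the calcium channel *Cacna1e* (−0.09) did not pass it either.

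Genes of the axonal cytoskeleton moved in both directions. Of 33 tested genes (of 36 listed), 14 were higher, 7 lower and 12 not called, with a median of 0.16, and under median-of-ratios scaling 4 were lower. Over all genes tested 23.8% were higher and 37% lower. *Nefl*, the light neurofilament, went from 25.9 and 28.9 TPM to 60.8 and 71.4, while *Nefm*, the medium one, was at 26.7 and 31.4 and then at 26.1 and 39.7, overlapping between stages, and *Ina*, the filament of young axons, fell by 0.19. *Tuba4a*, a tubulin of mature neurons, went from 7.36 and 6.70 TPM to 25.9 and 26.3. The microtubule-associated genes *Map1a*, *Map6* and *Mapt* rose by 0.81, 0.71 and 0.70, while *Map2* (0.05) and *Map1b* (0.15) did not pass the test.

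Astrocyte genes rose in 19 of 25 tested cases (of 36 listed), 3 fell and 3 were not called, with a median of 0.86. Under median-of-ratios scaling 2 were called lower. After *Gfap* and *Slc6a11*, the largest rise was that of *Apoe*, the lipid carrier of glia, from 22 and 24.2 TPM to 114 and 90.1. *Sparcl1*, a secreted synapse-promoting protein, went from 33.7 and 35.1 TPM to 109 and 102, *Slc1a2*, the main glutamate transporter of mature astrocytes, from 22.5 and 22.7 to 53.1 and 56.5, and *Aldh1l1*, a folate enzyme used to mark astrocytes, rose by 1.07. *Glul*, glutamine synthetase, rose by 0.44. The 3 that fell are also genes of progenitors: *Gpc4*, a glypican (24.3 and 22.6, then 6.71 and 6.62 TPM), *Fgfr3*, a growth factor receptor (−0.92), and *Aldoc*, an aldolase (−0.19), the last of which also belongs to the glycolysis list. Some members are shared with other lists here, *Slc1a3* and *Mfge8* with radial glia and *Atp1b2* with the pumps.

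Markers of other tissues were low or moved in mixed directions. The 7 tested genes of meninges and connective tissue (14 of 19 are in the table) gave 5 lower (3 under quantile normalization) and 2 higher, and their summed level, over all 14, went from 136 and 139 TPM to 82.4 and 67.5. *Serpinh1*, a collagen chaperone, went from 40.2 and 37.4 TPM to 15.3 and 12. The collagens *Col1a1*, *Col1a2*, *Col3a1*, *Col6a1* and *Col6a2* averaged under 1 TPM. Vessel genes summed to 85.5 and 86.3 TPM and then to 93.2 and 84.9, with 2 higher, 2 lower and 4 not called among 8. Microglia genes summed to 60.4 and 62.9 TPM and then to 80.5 and 77.5, with 3 of 4 higher and *Lcp1* lower, by 0.60, a call lost under quantile normalization. The choroid plexus marker *Ttr* was at 3.43 and 4.13 TPM and then at 4.35 and 2.93. The erythroid list gave 3 higher, 3 lower and 1 not called, and its sum went from 1885 and 1894 TPM to 1306 and 1320. Embryonic globin *Hbb-y* went from 8.15 and 8.79 TPM to 2.31 and 1.88, and *Hbb-bh1* and *Slc4a1* averaged under 1 TPM. Nearly all of the erythroid sum thus lay in other members of the list, and it is not a measure of blood RNA. Of the 4 tested striatal genes, *Foxp1*, which cortical neurons also express, rose by 1.16, *Pde1b* and *Ppp1r1b* fell by 0.56 and 0.50, and *Pde10a* (−0.05) did not pass the test. Of the oligodendrocyte lineage only *Cnp* could be tested, at 0.83. The part of meningeal and blood RNA in the changes of *Igf2* and the other genes was not tested.

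The sex of the animals is not given, and sex-linked genes differed between the libraries. *Eif2s3y*, on the Y chromosome, was at 13.2 and 15.52 TPM at E15.5 and at 42.3 and 25 at P0. *Ddx3y* was at 10.8 and 11.5 TPM and then at 20.6 and 14.2, and *Eif2s3x*, on the X chromosome, at 72.9 and 72.2 and then at 44.7 and 61.9. P0 replicate 1 held the highest values of both Y genes. The part of sex in the other changes was not tested.

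Most tested genes of ribosomal proteins, splicing and chromatin regulation fell. Of 65 tested cytosolic ribosomal protein genes (of 80 listed), 45 were lower, none was higher and 20 were not called, with a median of −0.30. Median-of-ratios scaling left 33 lower. *Rpl13a* fell by 0.93 and *Rpl34* by 0.72, and values of single ribosomal genes are uncertain because of their many processed copies in the genome. Splicing factors were lower in 42 of 49 tested cases, higher in 1 and not called in 6, with a median of −0.51. *Ptbp1*, the repressor of neuronal exons, went from 79.7 and 72.6 TPM to 30.9 and 33.6, and *Hnrnpa3* from 871 and 1029 to 393 and 580. *Srsf5*, a serine- and arginine-rich factor, rose by 0.38. Chromatin regulators were lower in 33 of 46 tested cases, higher in 2 (*Brd2* 0.20 and *Rbbp7* 0.21) and not called in 11, with a median of −0.46. *Ezh2*, the methyltransferase of the Polycomb repressive complex, went from 67.0 and 65.1 TPM to 22 and 25.6, while its partners *Eed* and *Suz12* fell by 0.71 and 0.56.

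Glycolysis genes moved in both directions, and most genes of oxidative phosphorylation were not called. Of 17 tested glycolysis genes, 4 were higher, 9 lower and 4 not called, with a median of −0.19. The share called higher was near the 23.8% of all genes tested, of which 37% were lower. *Hk2*, the hexokinase of growing cells, went from 5.02 and 4.80 TPM to 1.33 and 0.98, and *Hk1*, the brain hexokinase, from 47.0 and 51.4 to 83.6 and 88.9. *Pkm*, pyruvate kinase, went from 428 and 424 TPM to 253 and 245. Of 63 tested genes of oxidative phosphorylation, 48 were not called, 11 were higher and 4 lower, with a median of 0.06. Under median-of-ratios scaling 22 were higher and 2 lower, with a median of 0.14.

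Related genes were set side by side in 45 pairs of an early and a late member. The early member was chosen as typical of dividing, immature or many kinds of cells, the late member as typical of mature neurons or glia. Some late members do not bear out that label: *Ccnd2* is also in the fetal growth list and *Fabp7* in the radial glia list. Both members were tested in 38 pairs, in which *Phf10* and *Lmnb1* each occur in 2. In 9 pairs the early member fell and the late member rose. In 9 more only the late member rose and in 6 only the early member fell. Both rose in 5, both fell in 4, only the late member fell in 2, and neither passed in 3. In none did the early member rise while the late member fell or was not called. The change of the late member exceeded that of the early member in 33 of 38, a description without a test, since the pairs were chosen for this contrast.

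The 9 crossing pairs spanned filaments, lamins, kinases and metabolism. *Vim* fell by 1.73 as *Nefl* rose by 1.24. The lamin *Lmnb1* went from 220 and 223 TPM to 99.8 and 109 while *Lmna* went from 3.90 and 4.43 to 9.30 and 8.70. *Cdk4*, a kinase of cell cycle entry, went from 750 and 736 TPM to 336 and 312, and *Cdk5*, its neuronal relative, from 83.9 and 84.8 to 123 and 111. Phosphofructokinase gave *Pfkl* −0.35 against *Pfkp* 1.96, enolase *Eno1* −0.27 against *Eno2* 1.07, and the glucose transporters *Slc2a1* −1.01 against *Slc2a3* 0.26. *Slc2a1* also belongs to the vessel list, in which it had the largest fall. *Vamp3* fell by 0.63 as *Vamp2* rose by 0.98. *Tubb5* fell by 0.26 and *Tubb4a* rose by 0.40.

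In the elongation factors only the late member moved: *Eef1a1* was at 6477 and 6331 TPM and then at 6005 and 5884 (−0.11, not called), and *Eef1a2* went from 64.3 and 64.1 to 142 and 141. Subunits of the BAF chromatin remodelling complex, which switch as neurons form, made up several pairs. Of the progenitor subunits, *Actl6a*, *Ss18* and *Smarcc1* fell by 1.47, 1.09 and 0.55, and *Phf10* (−0.17) did not pass the test. Of the neuronal ones, *Actl6b* (103 and 112, then 129 and 117 TPM), *Ss18l1* (−0.16), *Smarcc2* (−0.02) and *Dpf1* (0.14) did not pass it, and *Dpf3* fell by 0.39. Some pairs ran otherwise. *Ptbp2*, the neuronal relative of *Ptbp1*, also fell, by 0.58. *Ldhb*, the lactate dehydrogenase of oxidative tissue, fell by 0.61 while *Ldha* was not called at 0.04, and *Elavl2* fell by 0.71, further than *Elavl1* at 0.47.

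**Figure D4:**
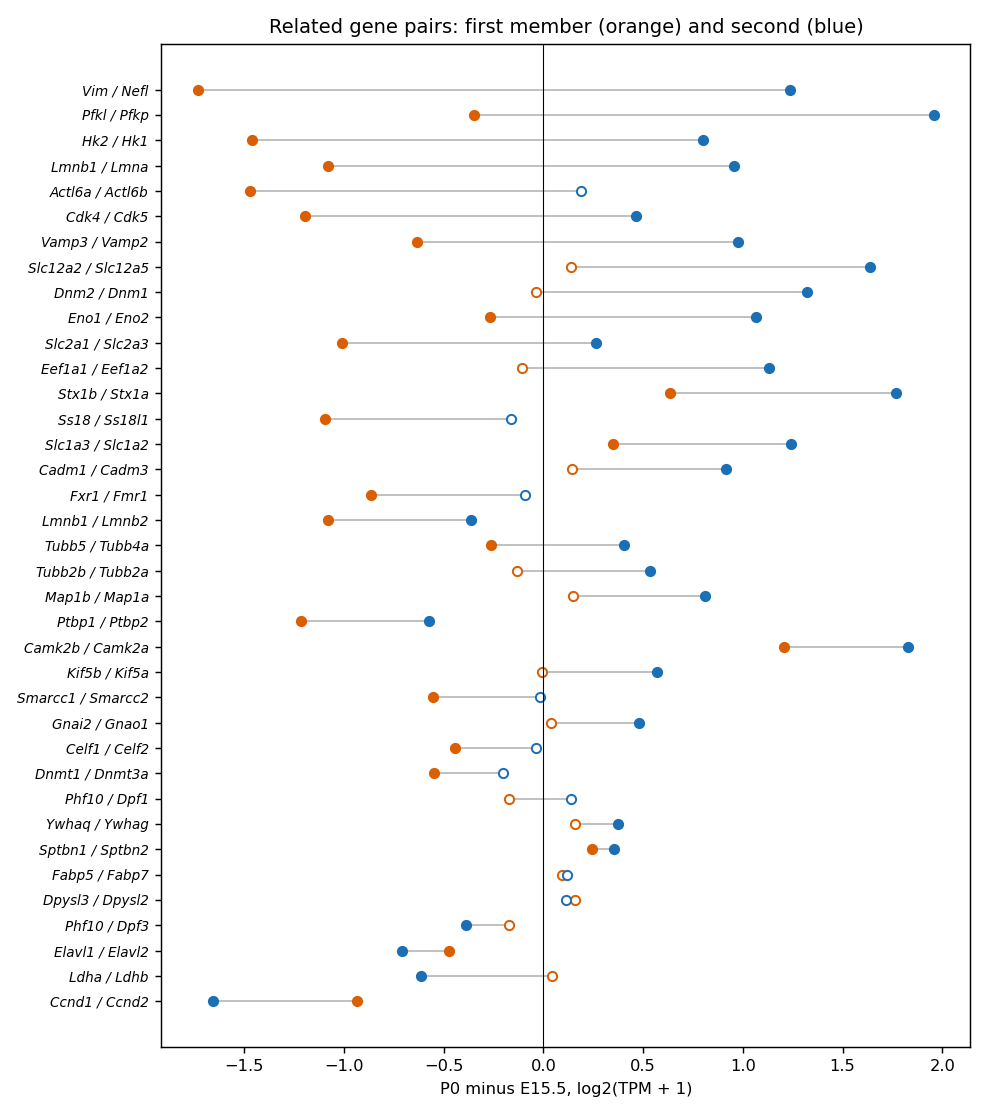
For the pairs with both members tested, 1 pair left out, the change of the early member (orange) and the late member (blue) from E15.5 to P0 on the log2(TPM + 1) scale, filled where the gene passed the test and open where it did not. The blue point lies to the right of the orange point except in the 5 pairs at the foot of the plot.

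The E17 libraries were then set between the stages. In 208 of the 273 genes that fell by 1 or more (76.2%) and in 158 of the 180 that rose by 1 or more (87.8%), both E17 libraries lay between the E15.5 and P0 values. This held for 32.5% of the genes that fell by less than 1, 33.6% of those that rose by less than 1 and 0.98% of those not called. The contrast between these shares follows in large part from the sorting, since a wider gap between the stages leaves more room for values in between. On the log2(TPM + 1) scale, the median part of the change already reached at E17 was 32.8% among the falls of 1 or more. Among the rises of 1 or more it was 47.3%. The E17 libraries differ from each other more than those of the other 2 stages, and their meningeal genes summed to 202 and 168 TPM and their vessel genes to 159 and 129, above both E15.5 and P0. The part of these in the E17 values was not tested.

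Late and early movers stood out at the ends of this range, chosen after their values were seen among 261 genes that averaged 10 TPM or more and had both E17 libraries in between. *Gfap* was at 1.79 and 1.98 TPM at E17, only 11.7% of its way. *Eno2* had reached 13.7% and *Asns*, asparagine synthetase, 14.1%. Of the falls, *Lima1*, an actin-binding protein, had gone 12.8% of the way, *Tmem177* 15.6%, *Sdf2l1* 20.01%, *Mdk*, the growth factor midkine, 20.6% and *Sox11* 21.1%. At the other end, *Syt4* went from 176 and 207 TPM to 394 and 377. At E17 it was at 332 and 374 TPM, 87.2% of the way on the log2 scale. *Gabra3* had reached 81.6%, *Lsamp*, a neuronal adhesion protein, 79.0% and *Syt1* 76.5%.

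**Figure D5:**
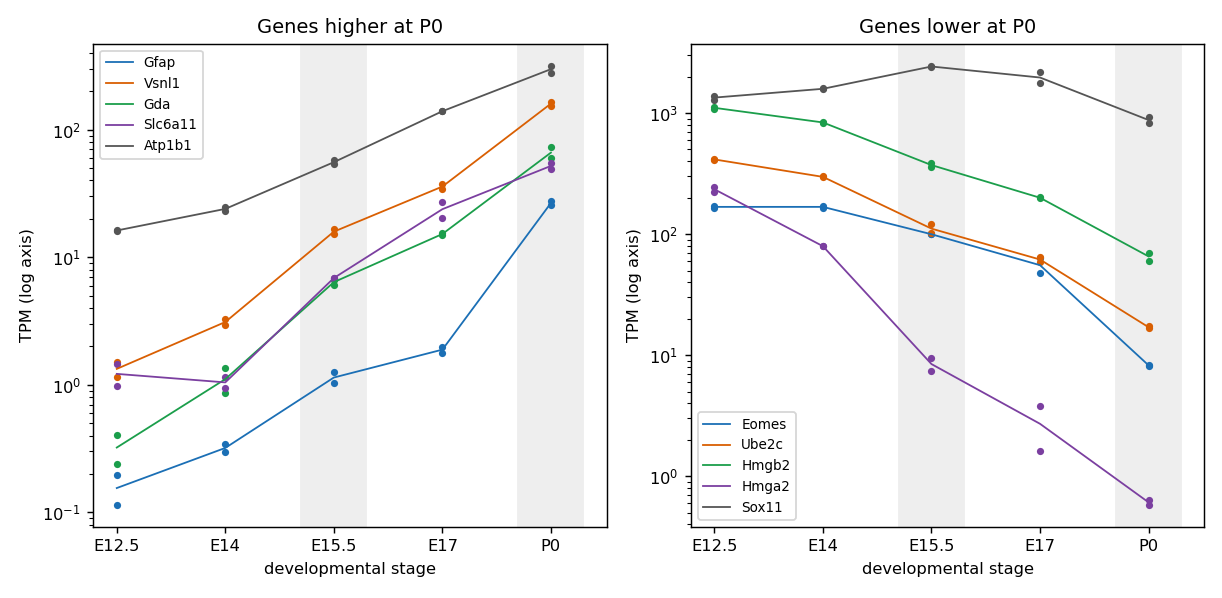
TPM of 5 genes higher and 5 genes lower at P0 in all 10 libraries, on a log axis, with points for libraries, lines through stage means and shading at E15.5 and P0. Gfap is at 1.98 TPM or less up to E17 and at 25.5 TPM or more at P0, and Sox11 is highest at E15.5, at 2448 and 2395 TPM, before it falls.

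The earlier step from E12.5 to E14 shares no library with this comparison. In a fit of its own 4 libraries, 2479 of 6034 genes were called (41.1%), 846 higher (14%) and 1633 lower (27.1%), a split that became 1094 and 1136 under quantile normalization and 1178 and 1112 under median-of-ratios scaling. With all 10 libraries in the fit the count was 529. Of the 272 genes that fell by 1 or more later and were tested in the earlier step, 212 (77.9%) had already fallen there and 13 had risen. Of 162 that rose by 1 or more later, 86 (53.1%) had already risen and 15 had fallen. Among genes not called later, 20.1% were lower and 10.3% higher in the earlier step. In those early libraries *Ttr* stood at between 293 and 1491 TPM and *Hbb-y* at between 1863 and 4429, against at most 4.35 and 8.79 in the E15.5 and P0 libraries, and the part of such RNA in the earlier step was not tested.

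By list, the replication genes had been falling throughout, with 40 of 40 lower in the earlier step, as had 43 of 45 mitosis genes and 40 of 49 splicing factors. Presynaptic genes had been rising, with 29 of 39 higher. The earlier step gave 6 astrocyte genes higher and 2 lower, of 25. *Slc6a11* was at 0.94 to 1.45 TPM over the 4 early libraries. Intermediate progenitor genes gave no call in either direction in the earlier step, with *Eomes* at 163 to 172 TPM in all 4 early libraries before its fall. Deep layer genes went the other way, with 7 of 9 higher in the earlier step and none lower, and 6 of 9 lower in the later one.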

How the data were processed

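Polyadenylated RNA of frozen neocortex, taken up in a cleared detergent lysate, was made into stranded libraries, per the labels' protocols. Per the file headers, the values the authors deposited are TPM, in 1 column per library, with 0 columns left without a sample. STAR, Subread and GRCm38.p5 are named in the submitters' processing notes. Not given in the sources used here are the annotation, the gene lengths and the rule by which 6147 genes were listed.

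Groups came from the labelled developmental stage. TPM are not counts, so log2(TPM + 1) of the 4 libraries of E15.5 and P0 was tested with limma 3.58.1 in R 4.3.3 (moderated test, variance trend), after genes with a mean under 1 TPM were left out. Benjamini-Hochberg adjustment ran over 6010 genes, with calls at an adjusted p under 0.05. Residual degrees of freedom were 2, and the median SE of a difference was 0.0833. P values measure only the spread between these libraries. Data were simulated for P0 against E15.5 over 6010 genes, 200 of them changed. Of changes of 0.5, 199 of 200 were recovered with 9 false calls, and of changes of 1, 200 of 200 with 8. The simulated noise was normal, equal in both stages and set by the variance trend alone. In the real libraries the P0 pair was the noisier and many more genes were called. The rates of the real comparison may therefore differ. E14 was compared with E12.5 in the same way.

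Genes named are the 15 largest rises and 15 largest falls among called genes averaging 10 TPM or more and without overlap, the 8 largest gains and 8 largest losses in TPM, the highest mean, members of 28 gene lists and both members of 45 pairs. Some of these genes are not reported here. The comparison, lists and pairs were chosen with earlier results of these data known. Coordinates of genes are from GENCODE M21 and promoters from RefSeq. Alternatives covered the pseudocount, the filter, scaling, the libraries in the fit, the moderation, the replicate block, the threshold and leaving out each library.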

Additional observations from a re-analysis of the deposited data

How the results depend on the processing

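Counts of called genes stayed within 1.5 times of the main 3657 under pseudocounts of 0.1 and 10 TPM, other filters, rescaling over the listed genes, quantile and median-of-ratios scaling, other moderation, all 10 libraries in the fit (3030) and 8 libraries without E17 (4020). A minimum change of 1 left 453 genes, 180 higher and 273 lower. Leaving out 1 library gave 2421 to 4571 calls, 951 to 1847 higher and 1464 to 2813 lower, and the lone library of a stage is then assumed to vary like the others. For E14 against E12.5, where the alternatives were chosen after seeing the data, leaving out 1 library gave 1772 to 2031 calls against 2479, and all 10 libraries in the fit gave 529. The labels do not say that a replicate number pairs libraries, and with 2 pairs the deviations of same-numbered libraries correlated at 0.0874. With the replicate block, 3804 genes were called (1489 higher, 2315 lower), and 1980 in the earlier step.

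Of the 46 genes named for the largest changes and TPM gains or losses, 43 kept direction and call in every alternative but the stricter thresholds. The exceptions were Gng2 (0 under quantile normalization, which gives genes of equal rank equal values), Tmsb4x and Tpt1. Changes that were not called turned sign in Eef1a1 under quantile normalization (0.11), and in 4 genes with a P0 library left out: Ppp1r9a lay between −0.22 and 0.14, Kif5b between −0.19 and 0.18 and Pgam1 between −0.19 and 0.13, each above 0 without P0 replicate 1, and Map2 lay between −0.13 and 0.24, below 0 without P0 replicate 2. The cause was not tested. Medians of the upper layer, vessel, choroid plexus and erythroid lists changed sign with the scaling. A minimum of 5 TPM leaves no tested gene in the choroid plexus list and so gives no median.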

Other observations

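Some genes that changed by 1 or more between E15.5 and P0 had changed the other way between E12.5 and E14. Among genes averaging 10 TPM or more there were 27, of which 13 had risen and then fell and 14 had fallen and then rose. At any level, 4.78% of the falls of 1 or more tested in both steps had risen earlier. Of such rises, 9.26% had fallen earlier. Over all genes tested in the earlier step 14% rose and 27.1% fell, so these reversals were rarer than those shares. The 27 genes were chosen after their values were seen. Among those that rose and then fell were regulators of young neurons. Sox5 stood at 122 and 116 TPM at E12.5, 164 and 168 at E14, 180 and 169 at E15.5 and 52.4 and 66.1 at P0. Tiam2, a Rac exchange factor, went from 30.8 and 34.2 TPM at E12.5 to 82.8 and 82.0 at E15.5 and 27.7 and 32.2 at P0. Draxin, an axon guidance protein, stood at 199 and 210 TPM at E12.5, 243 and 244 at E15.5, 390 and 262 at E17 and 124.5 and 107 at P0. Nfia, Nfib, Rnd2 and Sox11 belong to the same group.

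Among those that fell and then rose were Camk2a (13.3 and 14.6 TPM at E12.5, 9.26 and 9.64 at E15.5, 35.7 and 36.5 at P0), Sv2b, a vesicle protein (13.0 and 13.2, 8.75 in each library, then 22.6 and 22.9), and Cpe, a prohormone-processing enzyme (155.5 and 155.4, 127 and 123, then 317 and 273). Efna5, an ephrin of cortical maps, stood at 14.8 and 15.2 TPM at E12.5, 9.44 and 10.3 at E14, 16 and 17.2 at E15.5 and 33.6 and 37.4 at P0. The earlier step is the more dependent on the fit, as given above.

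The deposited TPM bear on how levels of different genes can be set side by side. For genes of low values, TPM multiplied by the longest coding length in GENCODE M21 (stop codon included) was a whole multiple of a single unit per library, within 0.01, for 70% to 81.4% of values under 60 reads. With the length of all exons the share was 9.62% to 14%. Genes with long untranslated exons had higher values: the median of the mean TPM over 5 equal bins of the ratio of exon to coding length went from 18.5 in the lowest bin (median ratio 1.64) to 91.2 in the highest (median ratio 7.02). Gng2, with a ratio of 20.3, and Pkia, with 16.1, are among the most abundant genes of the table. A length that is the same in all libraries does not alter changes within a gene. Changes between stages in the exons used were not tested. The median change was −0.12 in the lowest bin, −0.05 in bin 4 and −0.08 in the highest.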
